A study of Homo sapiens with 12 samples.

Results

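Integrins and laminins were followed through 12 RNA-seq libraries of HT-29, a human colon adenocarcinoma cell line that carries mutant APC. The genes were taken by symbol: every row of the TPM table named as an integrin alpha subunit, an integrin beta subunit or a laminin chain was included, which gave 38 of 25528 rows (18 alpha subunits, 8 beta subunits and 12 laminin chains). There were 4 groups of 3 libraries. Cells of the GFP and CTNNB1 groups were infected with lentivirus that carried the open reading frame of GFP (the control) or of CTNNB1, the gene of beta-catenin, and were collected at day 2 after infection. Cells of the shNT1 and shAPC groups were infected with lentivirus that carried the control hairpin named shNT1 or a hairpin against APC, and were collected at day 1 after induction with 2 µM doxycycline. All 4 groups share the APC mutant background of the line, and the labels do not say whether a group is a clone, a selected pool or a mixture with uninfected cells. The pair of CTNNB1 and GFP is called the CTNNB1 arm below, and the pair of shAPC and shNT1 the shAPC arm; vector, collection day and doxycycline differ between the arms and cannot be told apart there.

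Integrins are surface receptors built from 1 alpha and 1 beta subunit, and the pairing sets the ligand. ITGB1 pairs with many alpha subunits: with ITGA1 or ITGA2 it forms collagen receptors and with ITGA3 or ITGA6 laminin receptors. ITGA6 also pairs with ITGB4 in the hemidesmosome, the plaque that ties epithelial keratin filaments to the basement membrane. ITGAV pairs with ITGB5, ITGB6 or ITGB8 to bind ligands with an RGD sequence, among them the latent form of TGF-beta. Laminins are secreted trimers of an alpha, a beta and a gamma chain and are main components of the epithelial basement membrane. LAMA3 and LAMB3 are chains of the laminin of hemidesmosomes. The trimer of LAMA5, LAMB1 and LAMC1 is widespread in epithelial basement membranes.

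In both arms the collagen-binding alpha subunits ITGA1 and ITGA2 and the alpha-V partner ITGB8 rose, while ITGA3, ITGB4, LAMA3 and ITGB7 fell. The falls of ITGA3, ITGB4 and LAMA3 in the CTNNB1 arm were no longer called when any single GFP library was left out. The mean TPM of ITGA1, ITGA2 and ITGB8 was higher by 82.3%, 41.7% and 46.3% in the CTNNB1 arm and by 22.7%, 26.5% and 22.5% in the shAPC arm. ITGA6, ITGB1, ITGAV, ITGB5 and ITGB6 fell in the shAPC arm as well, among them the most abundant integrin subunits. LAMA5, LAMB1 and LAMC1 passed the test in neither arm. Each arm was fitted with limma on log2(TPM + 1) over all genes with a mean of at least 1 TPM, and calls were made at a Benjamini-Hochberg adjusted p under 0.05. Fold changes below are on that log2(TPM + 1) scale, which understates the change of weakly expressed genes, and errors of means are SD with n = 3. In bulk RNA, fewer cells that express a gene and less RNA per cell cannot be told apart.

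The upstream sequences of 3 genes are shown: the neighbours ITGA1 and ITGA2, which rose together, and LAMA3, which fell. They come from RefSeq on build GRCh38.p14 and hold the 250 bases before the listed start, 5′ to 3′ on the plus strand, at chr5:52787666-52787915, chr5:52989102-52989351 and chr18:23872770-23873019. Capitals mark matches on either strand to TGACTCA or TGAGTCA (AP-1), GGGCGG (GC box) or a TCF/LEF heptamer. The heptamers searched were CTTTGAA with its variants CTTTGAT and CTTTGTA as well as CTTTGTT.
ITGA1: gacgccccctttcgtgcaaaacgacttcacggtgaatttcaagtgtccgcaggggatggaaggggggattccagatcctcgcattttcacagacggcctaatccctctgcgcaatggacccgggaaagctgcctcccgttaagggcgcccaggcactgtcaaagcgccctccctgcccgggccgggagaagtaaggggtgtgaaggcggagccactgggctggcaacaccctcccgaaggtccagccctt
ITGA2: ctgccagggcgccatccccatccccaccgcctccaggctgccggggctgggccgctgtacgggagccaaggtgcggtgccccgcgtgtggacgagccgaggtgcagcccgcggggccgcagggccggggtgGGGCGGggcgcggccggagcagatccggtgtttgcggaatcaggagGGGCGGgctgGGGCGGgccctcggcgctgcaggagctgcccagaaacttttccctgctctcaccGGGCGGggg
LAMA3: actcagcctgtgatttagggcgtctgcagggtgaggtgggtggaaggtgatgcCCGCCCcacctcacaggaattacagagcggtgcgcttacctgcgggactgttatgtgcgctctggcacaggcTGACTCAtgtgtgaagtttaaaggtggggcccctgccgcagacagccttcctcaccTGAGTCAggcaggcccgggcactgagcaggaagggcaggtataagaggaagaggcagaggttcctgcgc
The ITGA1 window held no match and the ITGA2 window held 4 GC boxes. The ITGA1 window also precedes the gene PELO, which RefSeq lists from the same base on the same strand and which is described below. The LAMA3 window lies inside the annotated span of the gene (chr18:23689453-23955066), since the start listed by RefSeq there is an internal one. It held 2 AP-1 matches that begin 125 and 69 bases before the start, and 1 GC box. Upstream windows were found for 26 of the 38 genes by symbol, 16 of them among the genes tested. None of the 16 held a TCF/LEF heptamer, 1 (LAMA3) held an AP-1 match and 10 held a GC box. Over 27305 RefSeq windows of the same length the shares were 12.1%, 4.16% and 42.3%, and over the 9005 windows of genes tested here 7.33%, 2.6% and 68.1%. A match describes letters in this window only, and no binding was measured.

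Library facts were as follows. Between 14756 and 16186 genes were above 0 TPM per library, and Pearson correlations of log2(TPM + 1) within groups ran from 0.9912 to 0.9974 over 11741 genes. Since TPM does not retain sequencing depth, depth is unknown here and no detection limit was derived. APC had a log2 fold change of -1.32 in the shAPC arm (SE 0.08, adjusted p = 6.14e-06), from 16.4 ± 0.80 to 5.99 ± 0.56 TPM. The difference of CTNNB1 in its own arm was 0.13 (SE 0.04, adjusted p = 0.0587), which did not pass the threshold, and the means were 146 ± 2.9 TPM (GFP) and 160.1 ± 4.2 TPM (CTNNB1). Whether reads of the introduced CTNNB1 sequence are counted in this row is not given in the sources used here. Of 9 colon epithelial markers, EPCAM, KRT8, KRT18, CDH1, VIL1 and KRT20 had group means from 69.3 TPM (KRT20 in shAPC) to 5707 TPM (KRT18 in CTNNB1), while CDX1, CDX2 and CDH17 stayed under 1 TPM in every group mean. The summed TPM of 7 fibroblast markers was at most 1.6, of 5 endothelial markers at most 2.17 and of 4 smooth muscle markers at most 0.646 in any library. Among 7 leukocyte markers CD3E was at 0 in every library and the group means of PTPRC were at most 0.0125 TPM, while LYZ, also a product of intestinal secretory cells, reached a group mean of 7534 TPM. CD68, a macrophage marker that epithelial lines also express, fell in both arms (-0.98 and -0.81), from 26.96 ± 0.40 to 13.2 ± 1.1 TPM and from 13.8 ± 0.69 to 7.51 ± 1.3 TPM. The endothelial sum was highest in shNT1, at 2.05 to 2.17 TPM against 0.801 to 0.87 TPM in shAPC, through TEK. The part of these markers in the changes of the integrins and laminins was not tested.

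Of the 38 genes, 19 reached a mean of 1 TPM and were tested in each arm, among them ITGA1, ITGA2, ITGA3, ITGA6, ITGAE, ITGAV, ITGB1, ITGB4, ITGB5, ITGB6, ITGB7, ITGB8, LAMA3, LAMA5, LAMB1, LAMB2, LAMB3 and LAMC1. The gap at this threshold was wide, with LAMB2 lowest among the tested genes at a mean of 3.34 TPM over the 12 libraries and ITGAM highest among the others at 0.271 TPM. The 19 genes under the threshold never exceeded 0.464 TPM in a library. ITGA7 (a laminin receptor subunit of muscle), ITGA10 (a collagen receptor subunit), ITGAM and LAMA2 were above 0 in all 12 libraries at means from 0.141 to 0.271 TPM. ITGAD, ITGB3 and LAMA1 were listed at 0 in all 12. The other 12, ITGA2B, ITGA4, ITGA5, ITGA8, ITGA9, ITGA11, ITGAL, ITGAX, ITGB2, LAMA4, LAMB4 and LAMC3, were at 0 in at least 2 libraries each. ITGA5, the alpha subunit of the classical fibronectin receptor, was at 0 in 9 of them, and the leukocyte subunits ITGAL, ITGAM, ITGAX, ITGAD and ITGB2 all lay under the threshold.

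Levels of the tested genes spanned from ITGB1 at 535 ± 8.8 TPM to LAMB2 at 2.34 ± 0.30 TPM in GFP, and TPM, being scaled by transcript length, allows genes to be compared. ITGB1 and ITGA6 held ranks 1 and 2 in all 4 groups, with every library of ITGB1 above every library of ITGA6 and every library of ITGA6 above the next gene. ITGB5 and ITGB4 followed in each group, and their libraries overlapped with each other in GFP, shNT1 and shAPC but not in CTNNB1. ITGA1 held rank 8 in GFP and shNT1, rank 6 in CTNNB1 and rank 5 in shAPC. In CTNNB1 its libraries overlapped with those of ITGAV above it and LAMB1 below it, and in shAPC with those of ITGB4 above it and LAMB1 below it. Among the laminin chains LAMB1 had the highest mean in each group.

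**Figure D1:**
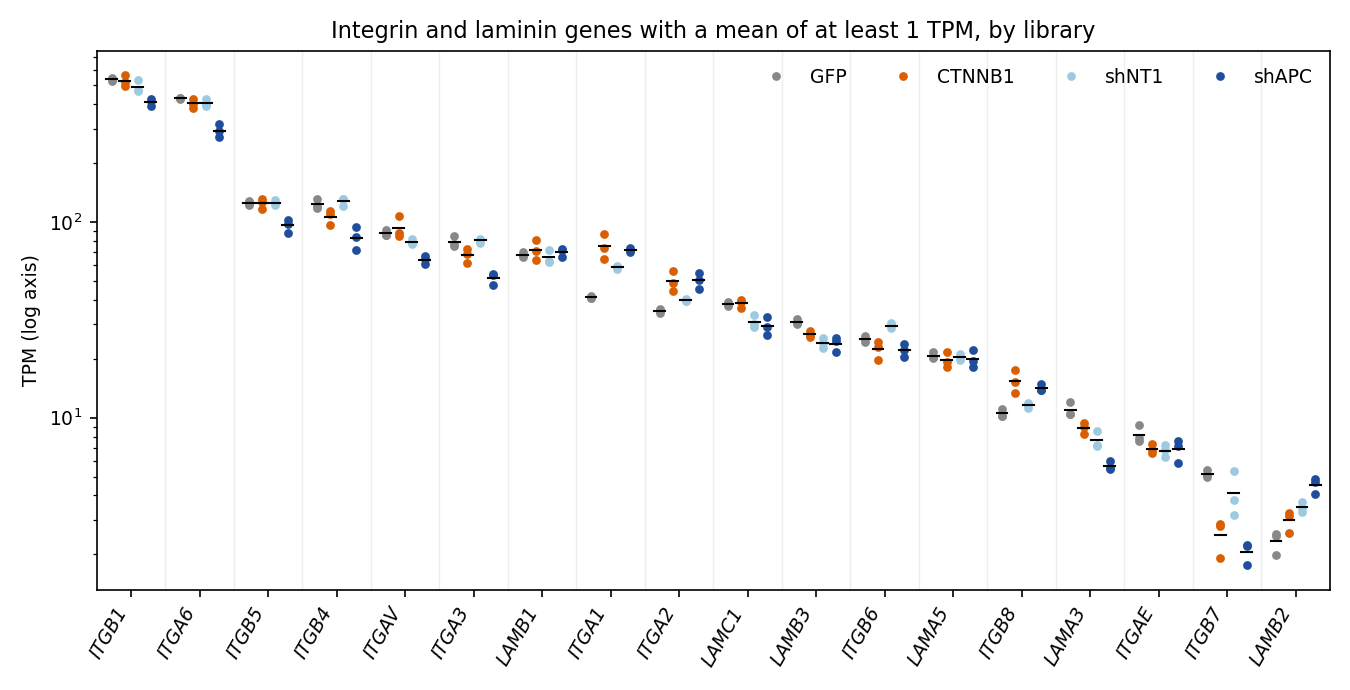
TPM on a log axis for 18 of the 19 integrin and laminin genes tested, ordered by their mean, with 1 point per library, 4 colours for the 4 groups and a black line at each group mean. ITGA1 and ITGA2 lie higher in CTNNB1 and shAPC than in their controls, and ITGB1 and ITGA6 stand above all other genes.

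The collagen-binding integrins were compared first. ITGA1 (ENSG00000213949, chr5:52787916-52959209) stood at 40.8, 42.1 and 40.9 TPM in the GFP libraries and at 87.1, 73.8 and 64.7 TPM in the CTNNB1 libraries. In the hairpin libraries ITGA1 stood at 58.7, 57.6 and 59.6 TPM in shNT1 and at 72.05, 73.7 and 70.03 TPM in shAPC. All perturbed libraries lay above their controls, and GFP was the lowest of the 4 groups with no library reaching those of shNT1. For CTNNB1 against GFP the log2 fold change came to 0.84 (SE 0.09, adjusted p = 0.000205), and for shAPC against shNT1 to 0.29 (SE 0.05, adjusted p = 0.00295). ITGA2 (ENSG00000164171, chr5:52989352-53094779) measured 34.2, 35.8 and 35.1 TPM in GFP against 55.9, 48.6 and 44.4 TPM in CTNNB1. With the hairpins ITGA2 measured 40.3, 39.4 and 39.4 TPM in shNT1 against 50.5, 54.7 and 45.5 TPM in shAPC. Again neither arm had an overlap between perturbed and control libraries. Its log2 fold changes were 0.49 (SE 0.08, adjusted p = 0.00209) and 0.33 (SE 0.07, adjusted p = 0.00804). Both calls held in each arm when any single library was left out. ITGA10 and ITGA11, the other collagen-binding alpha subunits, were not tested.

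ITGA1 and ITGA2 lie 30.1 kb apart on the plus strand of chromosome 5, whose upstream sequences are printed above. Their neighbours were looked up after these values had been seen. Within 250 kb on either side the TPM table held 2 more genes, PELO and MOCS2. PELO, a ribosome rescue factor, starts at the same base as ITGA1 in RefSeq and lies within it on the same strand. Its mean was 49.4 TPM in GFP and 36.8 TPM in CTNNB1, where it fell by 0.42 on the log2 scale (SE 0.05, adjusted p = 0.000402), opposite to ITGA1, and it differed by -0.10 in the shAPC arm (SE 0.06, adjusted p = 0.305). How reads shared by the transcripts of ITGA1 and PELO were assigned is not stated, so their separate values are uncertain to that extent. MOCS2, an enzyme of molybdenum cofactor synthesis just beyond ITGA2, passed the test in neither arm (0.04, adjusted p = 0.597, and 0.16, adjusted p = 0.105).

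Among the laminin-binding integrins ITGA3 and ITGB4 fell in both arms and ITGA6 in the shAPC arm. ITGA3 (ENSG00000005884, chr17:50056110-50090481) stood at 75.3, 77.2 and 84.3 TPM in GFP and at 61.4, 72.4 and 68.4 TPM in CTNNB1. After APC knockdown ITGA3 stood at 54.2, 53.6 and 47.7 TPM, against 78.5, 82.3 and 81.3 TPM in shNT1. The groups did not overlap in either arm, and the shAPC libraries were the lowest of all 12. The log2 fold change of ITGA3 came to -0.23 for CTNNB1 against GFP (SE 0.07, adjusted p = 0.0411) and -0.63 in the shAPC arm (SE 0.06, adjusted p = 9.27e-05). The first of these calls was lost without CTNNB1 replicate 1 (adjusted p = 0.0516) or 3 (0.0535) and without any GFP library (0.0656 to 0.153). It was also lost with no filter on low genes (0.0925) and with no mean-variance trend in limma (0.0754). ITGA6 (ENSG00000091409, chr2:172427336-172506459) measured 429.8, 424 and 432 TPM in GFP and 427, 399 and 383 TPM in CTNNB1, where the groups overlapped and the difference of -0.09 did not pass the threshold (95% confidence interval from -0.20 to 0.02, adjusted p = 0.198). With the hairpins ITGA6 fell from 391, 401 and 422 TPM to 293, 316 and 270.2 TPM without overlap (log2 fold change -0.47, SE 0.06, adjusted p = 0.000752). ITGA6 was called in the CTNNB1 arm under median-ratio scaling (-0.16, adjusted p = 0.0169), with the length trend removed (-0.13, adjusted p = 0.0357) and without CTNNB1 replicate 1 (-0.13, adjusted p = 0.0193).

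ITGB4 (ENSG00000132470, chr17:75721459-75757818), the partner of ITGA6 in hemidesmosomes, measured 118, 120.2 and 131 TPM in GFP and 96.4, 113 and 109.6 TPM in CTNNB1. With the hairpins ITGB4 went from 120.5, 130.5 and 131 TPM in shNT1 to 83.8, 93.7 and 71.7 TPM in shAPC. No perturbed library reached its controls. The log2 fold changes were -0.21 (SE 0.07, adjusted p = 0.0491) and -0.62 (SE 0.09, adjusted p = 0.000932). The ITGB4 call in the CTNNB1 arm lay at the threshold and was lost in 5 planned refits that kept all libraries (adjusted p from 0.0504 to 0.109) and without any of GFP replicates 1, 2 and 3 or CTNNB1 replicate 1 (adjusted p from 0.0582 to 0.175). ITGB4 overlaps GALK1, which passed the test in neither arm. The ratio of ITGB4 to ITGA6 TPM was 0.287 ± 0.014 in GFP, 0.265 ± 0.034 in CTNNB1, 0.315 ± 0.0092 in shNT1 and 0.283 ± 0.016 in shAPC, so ITGA6 transcripts were in excess throughout.

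ITGB1 (ENSG00000150093, chr10:32900318-32958230), the shared beta subunit, stood at 526, 535 and 543 TPM in GFP and 562, 518 and 493 TPM in CTNNB1. The CTNNB1 libraries spread on both sides of the GFP libraries, and the difference of -0.03 did not pass the threshold (95% confidence interval from -0.15 to 0.09, adjusted p = 0.702). ITGB1 in the hairpin libraries measured 466, 469.6 and 528 TPM in shNT1 and 416, 426 and 390.4 TPM in shAPC, a fall without overlap (log2 fold change -0.25, SE 0.06, adjusted p = 0.0188). That call was lost without shAPC replicate 3 (-0.21, adjusted p = 0.0767) and with no filter on low genes (adjusted p = 0.0583).

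The proportions of collagen-binding and other alpha subunits were computed within each library, where no scaling between libraries enters. ITGA1 and ITGA2 together made up 11.4% ± 0.30 of the summed TPM of ITGA1, ITGA2, ITGA3, ITGA6 and ITGAV in GFP and 18.1% ± 1.3 in CTNNB1. The share was 14.8% ± 0.44 in shNT1 and 23.02% ± 0.32 in shAPC. The 4 groups did not overlap in this share, and shNT1 lay above GFP. The numerators differed between the arms: summed ITGA1 and ITGA2 went from 76.3 ± 1.4 to 125 ± 17 TPM and from 98.3 ± 1.2 to 122 ± 6.5 TPM. Summed ITGA3 and ITGA6 went from 508 ± 8.1 to 470.4 ± 18 TPM and from 485 ± 17 to 345 ± 26 TPM. No p-value was given to these shares, since the genes were picked with their changes known.

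**Figure D2:**
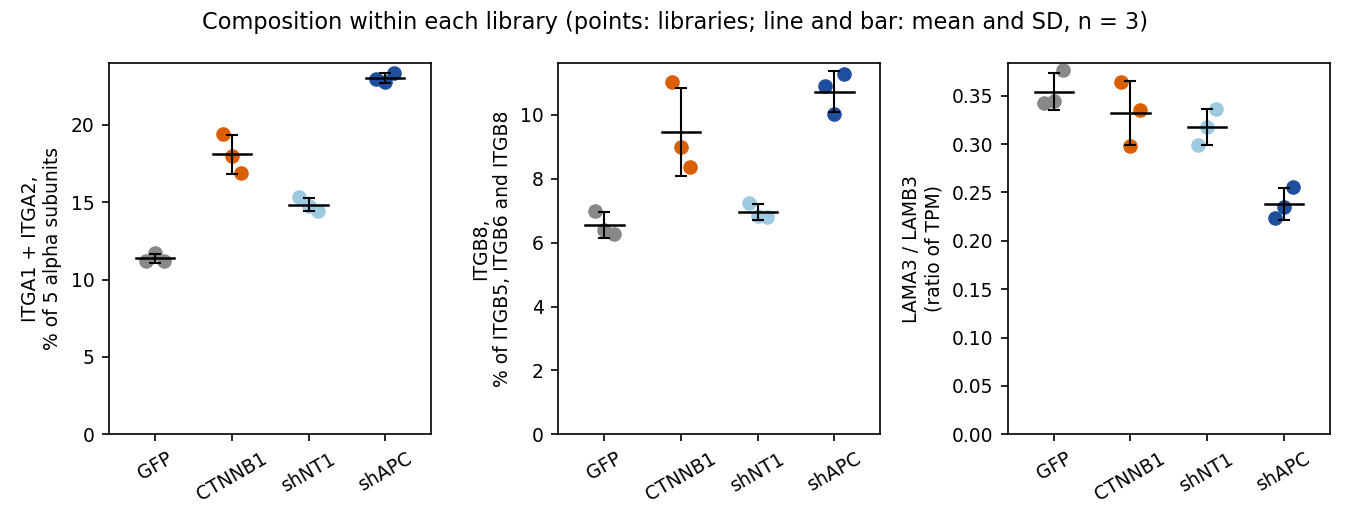
Shares and ratios within each library, with 1 point per library and the mean and SD of each group of 3; the left panel gives ITGA1 plus ITGA2 as a percentage of 5 alpha subunits, the middle panel ITGB8 as a percentage of ITGB5, ITGB6 and ITGB8, and the right panel the ratio of LAMA3 to LAMB3 TPM. The collagen-binding share rises from 11.4% to 18.1% and from 14.8% to 23.02%, and the LAMA3 ratio is lowest in shAPC.

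The alpha-V group moved apart by partner. ITGAV (ENSG00000138448, chr2:186590056-186680901) stood at 91.01, 86.2 and 86.02 TPM in GFP and 107, 87.7 and 84.9 TPM in CTNNB1, where replicate 1 was the highest of all 12 libraries, replicate 2 lay among the controls and replicate 3 just under them. The difference of 0.08 did not pass the threshold (95% confidence interval from -0.10 to 0.26, adjusted p = 0.513), and it was -0.02 without CTNNB1 replicate 1. In the hairpin arm ITGAV fell from 78.2, 77.3 and 82.2 TPM to 64.6, 67.1 and 60.96 TPM without overlap (log2 fold change -0.30, SE 0.06, adjusted p = 0.00441).

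ITGB5 (ENSG00000082781, chr3:124761948-124901418), the most abundant of ITGB5, ITGB6 and ITGB8, measured 122, 123 and 129 TPM in GFP and 117, 131 and 126 TPM in CTNNB1. The difference was 0.001 (95% confidence interval from -0.12 to 0.12, adjusted p = 0.989). ITGB5 fell from 123, 124 and 129 TPM in shNT1 to 98.03, 103 and 88.1 TPM in shAPC (log2 fold change -0.38, SE 0.06, adjusted p = 0.00219). ITGB6 (ENSG00000115221, chr2:160099671-160200272), an epithelial subunit that serves in TGF-beta activation, measured 25.2, 26.2 and 24.5 TPM in GFP and 24.4, 22.97 and 19.7 TPM in CTNNB1. The 2 groups of ITGB6 did not overlap, but the difference of -0.17 did not pass the threshold (SE 0.08, adjusted p = 0.137). It passed under median-ratio scaling (-0.24, adjusted p = 0.0345), quantile normalization (-0.24, adjusted p = 0.0432) and the GC trend removed with a replicate block (-0.18, adjusted p = 0.0488), and without CTNNB1 replicate 1 (-0.24, adjusted p = 0.029). ITGB6 went from 29.6, 28.7 and 30.4 TPM in shNT1 to 23.7, 22.1 and 20.4 TPM in shAPC (log2 fold change -0.41, SE 0.07, adjusted p = 0.00221).

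ITGB8 (ENSG00000105855, chr7:20329766-20415754), also a TGF-beta activating partner, rose in both arms. It stood at 11.1, 10.2 and 10.2 TPM in GFP and 17.5, 15.2 and 13.4 TPM in CTNNB1 (log2 fold change 0.50, SE 0.09, adjusted p = 0.00444). ITGB8 measured 11.9, 11.2 and 11.6 TPM in shNT1 and 14.9, 13.9 and 13.8 TPM in shAPC (log2 fold change 0.27, SE 0.07, adjusted p = 0.0165). All perturbed libraries lay above all controls in each arm, while the shAPC call was lost without shNT1 replicate 2 (0.25, adjusted p = 0.0606). As a share of the summed TPM of ITGB5, ITGB6 and ITGB8, ITGB8 made up 6.55% ± 0.40 in GFP, 9.47% ± 1.4 in CTNNB1, 6.96% ± 0.24 in shNT1 and 10.7% ± 0.64 in shAPC. ITGB3, a further alpha-V partner, was listed at 0 throughout.

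The pair ITGAE and ITGB7 forms a receptor of intraepithelial lymphocytes, and both were measured here in the epithelial line at low level. ITGB7 (ENSG00000139626, chr12:53191323-53207251) stood at 5.12, 5.40 and 4.96 TPM in GFP and 1.92, 2.81 and 2.85 TPM in CTNNB1. In the hairpin libraries ITGB7 stood at 3.19, 3.81 and 5.35 TPM in shNT1 and 2.21, 2.22 and 1.76 TPM in shAPC. Controls lay above perturbed libraries in both arms, although the shNT1 libraries spread widely. The log2 fold changes were -0.82 (SE 0.12, adjusted p = 0.00106) and -0.72 (SE 0.15, adjusted p = 0.00794), and both calls held when any single library was left out. ITGB7 overlaps ZNF740 on the opposite strand (mean 35.3 TPM over the 12 libraries). Whether counting used strand is not stated, so ITGB7 reads cannot be told apart from those of ZNF740 where they overlap, and ZNF740 passed the test in neither arm. ITGAE had group means from 6.78 ± 0.49 TPM in shNT1 to 8.19 ± 0.83 TPM in GFP and passed the test in neither arm (-0.21, adjusted p = 0.0988, and 0.01, adjusted p = 0.936), and HASPIN lies within it. All CTNNB1 libraries lay under all GFP libraries for ITGAE, and it was called lower there under median-ratio scaling (-0.28, adjusted p = 0.0367) and quantile normalization (-0.32, adjusted p = 0.024).

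Of the laminin chains, those of hemidesmosomes are given first. LAMA3 (ENSG00000053747) stood at 10.4, 10.4 and 11.96 TPM in GFP and 9.34, 8.25 and 8.91 TPM in CTNNB1. In the hairpin libraries LAMA3 stood at 7.16, 7.24 and 8.58 TPM in shNT1 and 5.49, 5.996 and 5.51 TPM in shAPC. Both perturbed groups lay wholly under their controls. The log2 fold changes were -0.28 (SE 0.08, adjusted p = 0.0335) and -0.37 (SE 0.09, adjusted p = 0.0148), the latter lost without shAPC replicate 3 (-0.36, adjusted p = 0.0535). The former was lost without CTNNB1 replicate 2 (adjusted p = 0.121) or 3 (0.0504) and without any GFP library (0.0642 to 0.126). With no filter on low genes both calls were lost (0.0781 and 0.0518).

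LAMB3 (ENSG00000196878, chr1:209614870-209652425), a beta chain that joins LAMA3, measured 30.3, 30.1 and 31.8 TPM in GFP and 25.7, 27.7 and 26.5 TPM in CTNNB1, a fall without overlap (log2 fold change -0.20, SE 0.06, adjusted p = 0.0282). That call was lost when any single GFP library was left out. In the shAPC arm LAMB3 overlapped, with 23.9, 22.8 and 25.5 TPM in shNT1 and 24.6, 25.5 and 21.5 TPM in shAPC, and the difference of -0.01 did not pass the threshold (95% confidence interval from -0.18 to 0.16, adjusted p = 0.92). Within libraries LAMA3 per LAMB3 was 0.354 ± 0.019 in GFP, 0.333 ± 0.033 in CTNNB1, 0.318 ± 0.019 in shNT1 and 0.238 ± 0.017 in shAPC. The ratio overlapped between CTNNB1 and GFP, and all shAPC libraries lay under all shNT1 libraries.

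LAMA5 (ENSG00000130702, chr20:62309065-62367312) stood at 20.4, 20.1 and 21.7 TPM in GFP, 18.2, 21.5 and 19.3 TPM in CTNNB1, 19.6, 20.5 and 21.3 TPM in shNT1 and 19.5, 22.1 and 18.1 TPM in shAPC. LAMB1 (ENSG00000091136, chr7:107923799-108003161) stood at 66.1, 67.8 and 69.8 TPM, 81.1, 70.7 and 63.7 TPM, 62.9, 62.7 and 72.1 TPM and 72.3, 71.7 and 65.8 TPM in the same order of groups. LAMC1 (ENSG00000135862, chr1:183023420-183145592) stood at 37.4, 38.3 and 39.04 TPM, 39.98, 38.8 and 36.4 TPM, 28.97, 30.03 and 33.6 TPM and 29.1, 32.6 and 26.5 TPM. All 3 chains overlapped between perturbed and control libraries in each arm. The 95% confidence intervals of the log2 fold change ran from -0.23 to 0.09 for LAMA5, from -0.10 to 0.25 for LAMB1 and from -0.12 to 0.13 for LAMC1 in the CTNNB1 arm. For shAPC against shNT1 they ran from -0.21 to 0.13, from -0.07 to 0.24 and from -0.26 to 0.12. LAMB2 (ENSG00000172037, chr3:49121114-49133050), a beta chain with a low level here, stood at 2.53, 1.998 and 2.50 TPM in GFP and 3.26, 3.15 and 2.59 TPM in CTNNB1 (log2 fold change 0.26, adjusted p = 0.118). LAMB2 in the hairpin libraries went from 3.29, 3.71 and 3.44 TPM to 4.85, 4.67 and 4.08 TPM (log2 fold change 0.30, SE 0.10, adjusted p = 0.0464). That call was lost when any single one of the 6 libraries was left out (adjusted p from 0.0525 to 0.137).

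**Figure D3:**
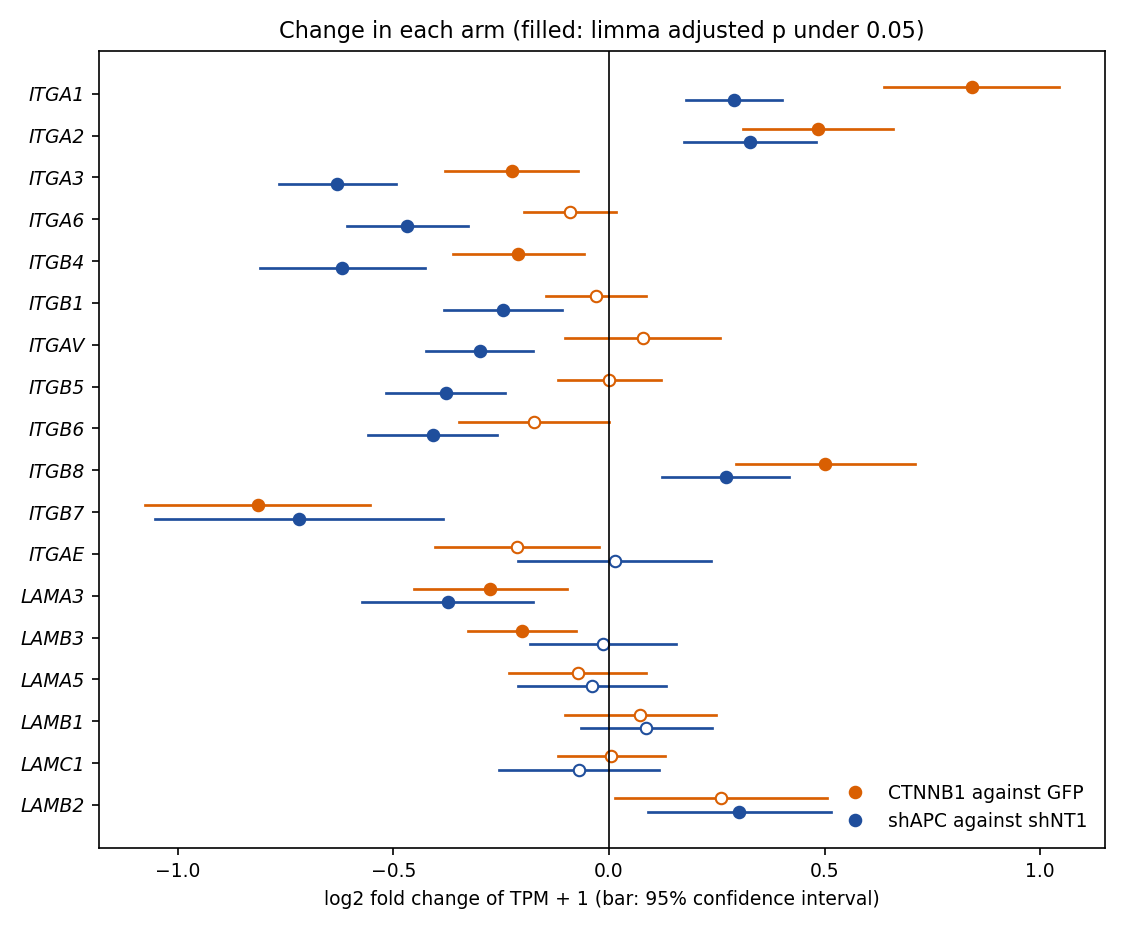
Log2 fold change of TPM + 1 for 18 of the 19 tested genes, grouped by role, in the CTNNB1 arm (orange) and the shAPC arm (blue), with 95% confidence intervals as bars and filled points for a limma adjusted p under 0.05. ITGA1, ITGA2 and ITGB8 lie right of 0 in both arms, and ITGA3, ITGB4, ITGB7 and LAMA3 lie left of 0 with filled points in both.

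Counted over the list, 9 of the 19 tested genes were called in the CTNNB1 arm, against 23.5% of the 11624 genes tested. Of these, 3 were higher (16.3% of all tested genes were) and 6 lower (7.16%). In the shAPC arm 14 of 19 were called, against 22.1% of 11834 genes, 4 of them higher (7.24%) and 10 lower (14.9%). Perturbed and control libraries did not overlap for 12 of the 19 in the CTNNB1 arm (43.2% of all tested genes), 4 of them higher (30.2%) and 8 lower (13%). They did not overlap for 14 in the shAPC arm (40.9%), 4 of them higher (14.5%) and 10 lower (26.4%). The median log2 fold change of the 19 was -0.07 in the CTNNB1 arm beside 0.06 over all tested genes, and -0.25 in the shAPC arm beside -0.05. The directions over all genes depend on scaling: 69.5% of all calls were higher in the CTNNB1 arm for TPM as deposited and 46.2% under median-ratio scaling, and 32.8% and 44.3% in the shAPC arm. Under that scaling 3 integrin and laminin genes were called higher and 9 lower in the CTNNB1 arm, and 4 higher and 10 lower in the shAPC arm. The calls in the CTNNB1 arm also depended on the GFP libraries. Without GFP replicate 1, 2 or 3 only ITGA1, ITGA2, ITGB8 and ITGB7 were called. Without CTNNB1 replicate 1, 2 or 3, by contrast, 9, 8 and 7 integrin and laminin genes were called. The reason for this was not tested.

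Both arms called 8 genes in a shared direction, 3 higher and 5 lower, which is 88.9% of the calls in the CTNNB1 arm and 57.1% of those in the shAPC arm. None was called in opposite directions. Over all 11556 genes tested in both arms, 845 were called in a shared direction (31.2% of the calls in the CTNNB1 arm and 32.9% of those in the shAPC arm) and 119 in opposite directions. For TPM as deposited ITGAE, LAMA5, LAMB1 and LAMC1 were called in neither arm, while ITGAE was called in the CTNNB1 arm under the 2 other scalings given above. A single limma model of the 12 libraries tested the CTNNB1 effect minus the shAPC effect. The difference was called for 6 of the 19 genes, all positive, against 16.1% of 11741 genes (13.3% positive and 2.76% negative). ITGA1 rose by more in the CTNNB1 arm (0.55, SE 0.11, adjusted p = 0.00525). ITGA3 (0.40) and ITGB4 (0.41) fell by less there, and ITGA6 (0.38), ITGB5 (0.38) and ITGAV (0.38) were called in the shAPC arm and not in the CTNNB1 arm, with adjusted p from 0.00816 to 0.0348 over these 5. Over all tested genes the median difference was 0.108 for TPM as deposited and 0.00393 after median-ratio scaling, under which ITGA1 (0.44, adjusted p = 0.0113) and ITGA6 (0.27, adjusted p = 0.0252) remained called. LAMB3 was then called with a negative difference (-0.30, adjusted p = 0.0366). The difference of ITGB4 was also lost without 7 single libraries (GFP replicates 1 and 2, CTNNB1 replicates 2 and 3, shNT1 replicates 2 and 3 and shAPC replicate 3) and that of ITGAV without 4 (GFP replicates 2 and 3, shNT1 replicate 3 and shAPC replicate 3).

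**Figure D4:**
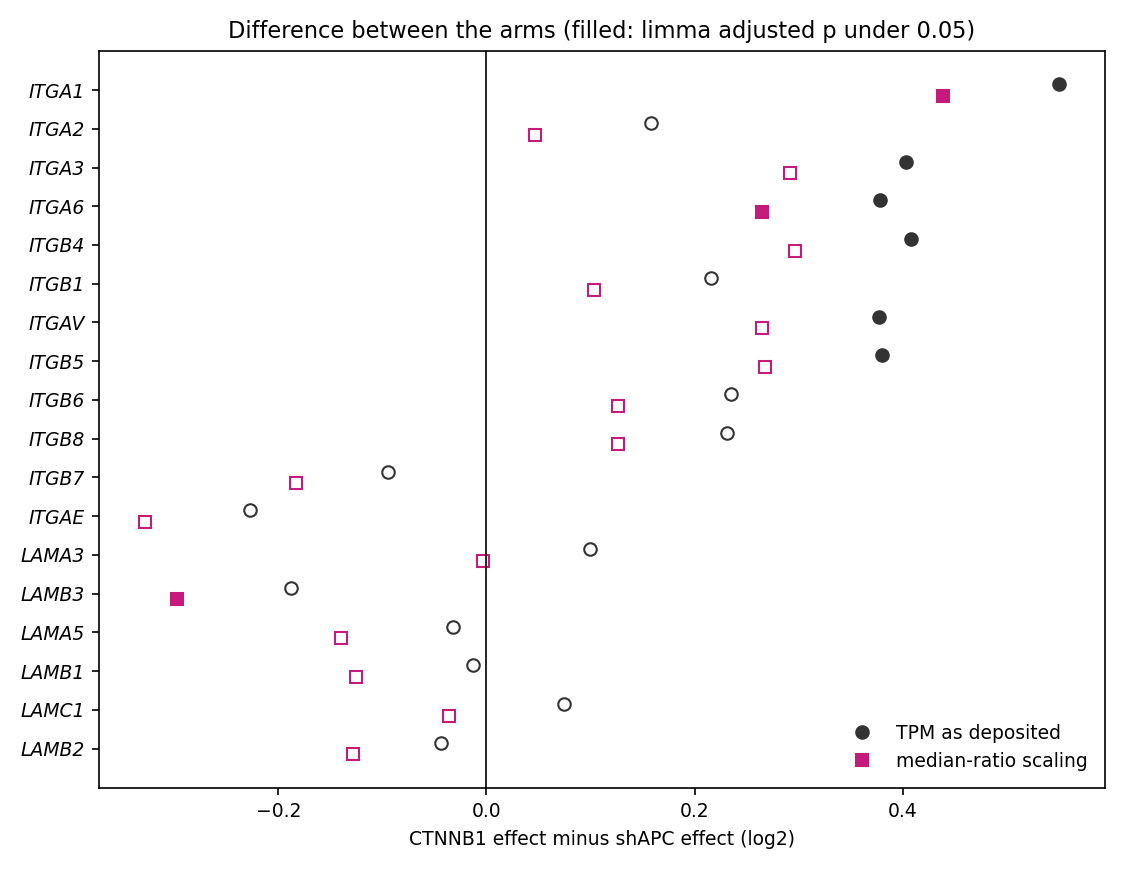
CTNNB1 effect minus shAPC effect on the log2 scale for 18 of the 19 tested genes, for TPM as deposited (circles) and after median-ratio scaling (squares), filled where the limma adjusted p was under 0.05. All but LAMB3 of the filled points lie right of 0, and ITGA1 and ITGA6 are filled under both scalings.

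GC content and transcript length are given beside the effects, as descriptions across genes, which are not independent replicates. Over all tested genes the log2 fold change had a Spearman rho of -0.13 with GC content and 0.231 with transcript length in the CTNNB1 arm, and 0.00707 and -0.124 in the shAPC arm (11106 and 11290 genes, which share the same libraries). Over the 19 integrin and laminin genes the values were -0.574 and 0.484, and -0.312 and 0.407. ITGA1 and ITGA2 have long transcripts of low GC content (10757 bases at 38.8% and 7869 bases at 40.2%), as has ITGB8 (8751 bases at 37.8%), while ITGA3 and ITGB4 are at 60.9% and 63.7%. ITGB1, ITGA6, ITGAV and ITGB6, at 39.98%, 42.9%, 38.3% and 40.1%, were not called higher in either arm. Whether GC content or length had a part in these changes was not tested. With the trend of each library on GC content removed, ITGA1 changed by 0.83 and 0.29, ITGA2 by 0.48 and 0.33 and ITGB8 by 0.50 and 0.27 in the CTNNB1 and shAPC arms. With the trend on length removed they changed by 0.75 and 0.33, by 0.41 and 0.36, and by 0.42 and 0.30, each still called. The falls of ITGA3 and ITGB4 in the CTNNB1 arm were -0.17 and -0.13 after GC removal (adjusted p = 0.0186 and 0.0277), beside -0.23 and -0.21 before. GC removal with a replicate block kept only 7 of the 9 integrin and laminin calls of this arm, and 3 genes were then called higher and 5 lower.

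Genes that work with these receptors were read from lists. Beside their counts stand the 23.5% of all tested genes called in the CTNNB1 arm and the 22.1% in the shAPC arm. Of 21 integrin adaptors, 18 were tested, and the 6 and 5 called lie near those shares. In the CTNNB1 arm 5 rose and 1 fell: TNS3 (0.56), PARVA (0.50) and VCL (0.41), which link integrins to actin, rose most, and the kindlin FERMT3 fell (-0.63, from 2.19 to 1.07 TPM). In the shAPC arm none of them rose and 5 fell, among them FERMT3 (-0.46), ITGB1BP1 (-0.33), which binds the ITGB1 tail, the scaffold BCAR1 (-0.29) and the actin crosslinker ACTN4 (-0.26). The arms differed by the limma test for VCL (0.54), PARVA (0.43) and TNS3 (0.41). All 7 genes of the list of hemidesmosome partners and other laminin receptors were tested. COL17A1, the transmembrane collagen of hemidesmosomes, fell in both arms (-0.63 and -0.69), from 36.03 ± 2.0 to 23.01 ± 1.1 TPM and from 25.6 ± 0.40 to 15.5 ± 1.4 TPM. PLEC, the plectin that joins ITGB4 to keratins, fell as well (-0.26 and -0.44). The laminin receptors BCAM (0.40) and DAG1 (0.21) rose in the CTNNB1 arm, so that 2 rose and 2 fell there. In the shAPC arm RPSA rose (0.19) and CD151, a tetraspanin bound to laminin-binding integrins, fell (-0.24), which makes 1 higher and 3 lower. RPSA is also a ribosomal protein with many pseudogenes, so its level is uncertain.

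Levels of matrix genes differed widely in the line. Of 14 other basement membrane genes 5 were tested, and COL4A5, COL4A6 and EGFL6 were at 0 in every library. Group means ran from 138.5 to 167.6 TPM for AGRN (agrin), from 54.6 to 79.9 TPM for HSPG2 and from 23.1 to 35.5 TPM for NTN4. COL18A1 rose in the CTNNB1 arm (0.47), and HSPG2, the proteoglycan perlecan (-0.55), and NTN4, a netrin that binds laminin (-0.23), fell in the shAPC arm, with no other call. Of 21 symbols of other integrin ligands 19 were in the table. In the CTNNB1 arm 7 of the 11 tested rose and 1 fell. TNC, an extracellular glycoprotein bound by several integrins, rose from 1.22 ± 0.19 to 4.05 ± 0.39 TPM (1.18), CTGF from 8.50 ± 0.36 to 19.2 ± 2.4 TPM (1.08) and CYR61, its relative, by 0.60 on the log2 scale. SPP1 (osteopontin) fell from 2.20 ± 0.66 to 0.419 ± 0.28 TPM (-1.17). In the shAPC arm 3 of 10 rose and 3 fell, with ICAM1 (0.71) highest, followed among the named by NPNT (-0.37), a ligand of ITGA8, TGFB1 (-0.36) and CDH1 (-0.33), a ligand of ITGAE. FN1 (fibronectin) had group means of at most 0.238 TPM, and VTN was at 0 in every library.

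In the authors' deposited table for CTNNB1, 8 of the 38 genes had an adjusted p under 0.05, of which 7 were also called here. ITGA6 was called only in the authors' deposited table (-0.16, adjusted p = 0.0087), and ITGA3 and ITGB4 only here. For shAPC 14 were called in the authors' deposited table and 13 of them here as well. ITGB7 was called only here (-0.91 in the authors' deposited table, adjusted p = 0.0611). LAMB4 was called only in the authors' deposited table (1.77, adjusted p = 0.0406), at no more than 0.0261 TPM in any hairpin library. For ITGA1 the authors' deposited tables give log2 fold changes of 0.78 and 0.33, and for ITGA3 -0.30 and -0.60.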

How the data were processed

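RNA-seq of 12 HT-29 libraries was analysed, 3 in each of 4 groups assigned from the sample labels. Alignment used STAR 2.7.3a on hg38 and comparisons used limma, per the submitters' processing notes; the annotation, the quantifier and the use of strand are not given in the sources used here. The deposited values are TPM per gene, scaled by the authors so that depth is not kept. The authors' deposited comparison tables hold log2 fold changes and p-values (raw and adjusted), and are quoted only where named.

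From the TPM, log2(TPM + 1) was fitted per arm with limma 3.58.1 (R 4.3.3, mean-variance trend) over genes with a mean of at least 1 TPM in the libraries fitted, with Benjamini-Hochberg adjustment over all of them and a threshold of 0.05. The difference between arms was a contrast in one fit of 12 libraries. The scripts were tested on simulated data. The labels do not say that libraries of a group came from separate cultures, so p-values measure only the spread between these samples, which may be technical. No 2 libraries held identical values. Alternatives were other pseudocounts, filters, scalings and designs, a replicate block and each library left out; removal of GC or length trends was added after the data were seen. The genes and lists were chosen with earlier results of these data known. Values per library are given for tested integrins and laminins called in any comparison, ITGB1 and main laminin chains; of each pathway list at most 4 called genes with the largest fold change are named per arm. Lengths and GC content are those of the longest GENCODE transcript, and upstream sequences and positions are from RefSeq (GRCh38.p14). The values of 1 tested gene are not reported here, though it stays in the counts.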

Additional observations from a re-analysis of the deposited data

Results flagged for a closer look

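For 6 genes the effect differed between the arms in the limma test of the difference itself, the CTNNB1 effect minus the shAPC effect on the log2 scale. The difference was 0.55 for ITGA1, 0.41 for ITGB4, 0.40 for ITGA3, and 0.38 for each of ITGA6, ITGAV and ITGB5. Under median-ratio scaling ITGA1 and ITGA6 were still called. Of the 6 calls, 4 were kept under quantile normalization and 4 with no filter on low genes. With no mean-variance trend 5 were kept, as with the length trend removed. All 6 were kept with a pseudocount of 0.1, a minimum mean of 5 TPM, a replicate block or the GC trend removed. Collection day, vector and doxycycline differ between the arms and cannot be told apart from the perturbed gene.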

How the results depend on the processing

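ITGA1 and ITGA2 kept their direction and their calls in both arms under every alternative that moved pseudocount, filter, scaling, design or libraries at the threshold of 0.05. ITGB7 did so wherever it was tested, but with a minimum mean of 5 TPM it and LAMB2 were not tested and 8 and 12 of 17 integrin and laminin genes were called in the 2 arms. ITGB8 did so but for the loss given above. At an adjusted p under 0.01 there were 1253 genes called in the CTNNB1 arm with 4 integrin and laminin genes, 1151 genes in the shAPC arm with 10, and 628 genes in the difference with 3 integrin and laminin genes. Under median-ratio scaling 3 integrin and laminin genes were called in the difference.

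With each library left out in turn, genes called ran from 1499 to 3190 in the CTNNB1 arm (4 to 9 integrin and laminin genes), from 1484 to 2252 in the shAPC arm (11 to 13), and from 995 to 2143 in the difference (4 to 8). The counts of all genes called fell most without a GFP library, without CTNNB1 replicate 2, without shAPC replicates 2 or 3 and, in the difference, without shNT1 replicate 3.

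Same-numbered libraries did not deviate together throughout. In the CTNNB1 arm the correlations of their deviations from the group means were 0.216, 0.0697 and 0.115, against -0.183 to 0.0686 for different numbers. In the shAPC arm they were -0.146, -0.00638 and -0.206, against -0.12 to 0.199 for different numbers. Whether a shared number marks a shared batch was not tested. With a replicate block 2895, 1767 and 1145 genes were called in the CTNNB1 arm, the shAPC arm and the difference, with 9, 13 and 6 integrin and laminin genes; the block moved LAMB2 in the shAPC arm to an adjusted p of 0.0933 in limma.

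Values that changed sign were uncalled before and after; the cause was not tested. Under median-ratio scaling these were ITGB5 (-0.073) and LAMC1 (-0.067) in the CTNNB1 arm, LAMA5 (0.001) and LAMB3 (0.028) in the shAPC arm, and LAMA3 (-0.003) and LAMC1 (-0.036) in the difference. Under quantile normalization they were ITGB1 (0.053) and LAMC1 (-0.034) in the CTNNB1 arm, LAMA5 (0.023) and LAMB3 (0.041) in the shAPC arm, and LAMC1 (-0.034) in the difference. With the GC trend removed, without or with the replicate block, they were LAMA5 (0.02) in the CTNNB1 arm and LAMA5 (0.048) and LAMB2 (0.009) in the difference. With the length trend removed they were ITGB5 (-0.02) and LAMC1 (-0.066) in the CTNNB1 arm, LAMA5 (0.004) in the shAPC arm, and LAMA3 (-0.035) and LAMC1 (-0.027) in the difference. With single libraries left out the log2 values spanned 0 for ITGB5 (-0.036 to 0.046), LAMC1 (-0.024 to 0.043), ITGAV (-0.023 to 0.14), LAMB1 (-0.017 to 0.155) and ITGB1 (-0.08 to 0.013) in the CTNNB1 arm. The same held for ITGAE (-0.054 to 0.11), LAMB3 (-0.061 to 0.056) and LAMA5 (-0.113 to 0.022) in the shAPC arm, and for LAMB1 (-0.103 to 0.069), LAMA5 (-0.096 to 0.041), ITGB7 (-0.262 to 0.038) and LAMB2 (-0.12 to 0.033) in the difference. TPM keeps no depth, so what sequencing depth limits could not be computed, and 3 libraries a group limit the precision.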
